A study of Homo sapiens with 7 samples.

Results

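The entries hsa-miR-1246, hsa-miR-1290, hsa-miR-7641, hsa-miR-4492, hsa-miR-4497 and hsa-miR-3195, written from here on without the species prefix, were followed through captures of the BRAF-X1 3' UTR. They are 6 of the 480 mature microRNA names in the deposited table and were chosen by name, as entries whose sequences resemble U2 snRNA, rRNA or very GC-rich RNA. Where a name had several hairpin rows, the row with the highest summed level stood for it. Small RNA was sequenced from 3 captures made with ODD probes, 3 made with EVEN probes (both sets are called X1 probes below) and 1 made with scrambled probes. All 7 were made from A375, a human melanoma cell line, harvested 24 h after seeding and crosslinked with 1% formaldehyde for 10 min before the miR-CATCHv2.0 pulldown. No treatment or genotype separated the groups, only the probes. The labels do not say whether the captures came from separate cultures, so the spread between them may be technical.

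U2 snRNA is the part of the spliceosome that pairs with the branch point of introns, and rRNA forms the core of the ribosome. Both are far more abundant in a cell than most microRNAs, and their breakdown products are short enough to enter a small RNA library. An annotated microRNA whose sequence matches such a product can collect its reads, and miR-1246 is known to match a stretch of U2 snRNA. miR-7641 is grouped with rRNA, and miR-4492, miR-4497 and miR-3195 are grouped by their GC-rich sequence. Levels are in RPM, reads per 1000000 reads listed in a library, and are not corrected for length.

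The mature sequences in RefSeq (GRCh38.p14) show how the entries fall into kinds. Of the 6 names, 4 matched a mature sequence. They are written 5′ to 3′, with the seed (bases 2 to 8, which lead target pairing of a microRNA) in capitals.
miR-1246: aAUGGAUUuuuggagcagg
miR-1290: uGGAUUUUuggaucaggga
miR-4492: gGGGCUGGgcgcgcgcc
miR-4497: cUCCGGGAcggcugggc
miR-1246 lies at chr2:176601024-176601042 on the minus strand, and no other RefSeq gene spans it. miR-1290 lies at chr1:18897078-18897096 on the minus strand, within the span of ALDH4A1, a mitochondrial enzyme of proline breakdown. miR-4492 lies at chr11:118910765-118910781 on the plus strand, within the span of BCL9L, a cofactor of beta-catenin. miR-4497 lies at chr12:109833350-109833366 on the plus strand, within the span of TRPV4, a calcium channel. Exons, introns and the strand of spanning genes were not analysed here.

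miR-1246 and miR-1290 share their longest run of bases with each other. The lines below repeat both, with that run of 12 bases in capitals.
miR-1246: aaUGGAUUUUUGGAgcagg
miR-1290: UGGAUUUUUGGAucaggga
Aligned on this run without gaps, they overlapped over 17 bases and differed by the single substitution G15U, with the base of miR-1246 first and positions counted from its 5′ end. The run is shifted by 2 bases between them, so their seeds differ. Among 2370 mature names in RefSeq, these 2 alone held the run.

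miR-4492 and miR-4497 were of the GC-rich kind and also shared a run, of 8 bases, shown in capitals.
miR-4492: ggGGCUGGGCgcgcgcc
miR-4497: cuccgggacGGCUGGGC
It was held by 10 of the 2370 mature names (0.422%). In miR-4492, 94.1% of 17 bases were G or C, and 5 of the 2370 names (0.211%) were at least as GC-rich. In miR-4497 the share was 82.4% of 17 bases, reached or passed by 2.03% of names. miR-1246 and miR-1290 were at 42.1% of 19 bases, under the median of 52.2%, so GC-richness does not describe them. The hairpin of miR-3195, at chr20:62064802-62064885 on the plus strand within the span of TAF4, a subunit of the general transcription factor TFIID, had 92.9% G or C over 84 bases. The seed of miR-4492 was shared by 3 other mature names, of which miR-5001-5p was in the table and had 1 read in all, in EVEN replicate 1. The other 3 matched members shared their seed with no other mature name. The match to U2 snRNA and rRNA is background here and was not analysed.

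Depth limited most of these values. Each column summed to 1000000 RPM over all hairpin rows, and the size of 1 read gave depths of 4049 to 35508 reads per X1-probe library and 4647 reads for the scrambled one. With 1 row per name the reads were 3046 to 25679 and 3479, so reads listed under several hairpins may count more than once in these depths. The exact intervals below use the larger depths. A single read was worth 247 RPM in ODD replicate 3, 28.2 RPM in ODD replicate 2 and 215 RPM in the scrambled library. No pair of libraries agreed within sampling noise (chi-square test on reads, counting error only). The largest unadjusted p was 0.0283, for EVEN replicate 3 and the scrambled library, which are among the shallowest, and that p depends on depth. The pigment-cell and melanoma microRNAs, 4 of 5 listed with reads, summed to 29595 to 40751 RPM with X1 probes and 37659 RPM with scrambled probes. The fifth, miR-211-5p, was not analysed here. Markers of blood (5 of 6 with reads) summed to 0 to 629 RPM with X1 probes and 215 RPM with scrambled probes, those of epithelium (3 of 6) to 108 to 494 RPM and 0 RPM, and those of muscle (2 of 3) to 84.5 to 741 RPM and 646 RPM. The liver marker, miR-122-5p, was not analysed here.

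Together the 6 entries held 587 reads over the 7 libraries, 456 of them from miR-1246. Their summed level was 0.804%, 0.670% and 1.01% of all RPM in ODD replicates 1 to 3, 0.624%, 0.621% and 0.566% in the EVEN replicates, and 0.990% with scrambled probes. The scrambled share thus lay below that of ODD replicate 3 and above the other 5. All 3 ODD sums lay above all 3 EVEN sums, at 8289 ± 1725 RPM for ODD and 6039 ± 325 RPM for EVEN (SD, n = 3 each). The sums were not tested, and miR-1246, their largest part, lay higher with ODD probes by a narrow gap given below. Of the 242 tested names, 9 (3.72%) lay higher with ODD probes without overlap and 8 (3.31%) lower. With X1 probes 65.6% to 92.6% of the members' reads were miR-1246, and with scrambled probes 69.6%. Without it, the other 5 summed to 420 to 2964 RPM per X1-probe library and to 3013 RPM in the scrambled library. All 6 entries had reads in the scrambled library, against 3 to 5 of them in each X1-probe library. Over all 480 names, 183 had reads in the scrambled library and 181 to 344 in single X1-probe libraries.

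**Figure D1:**
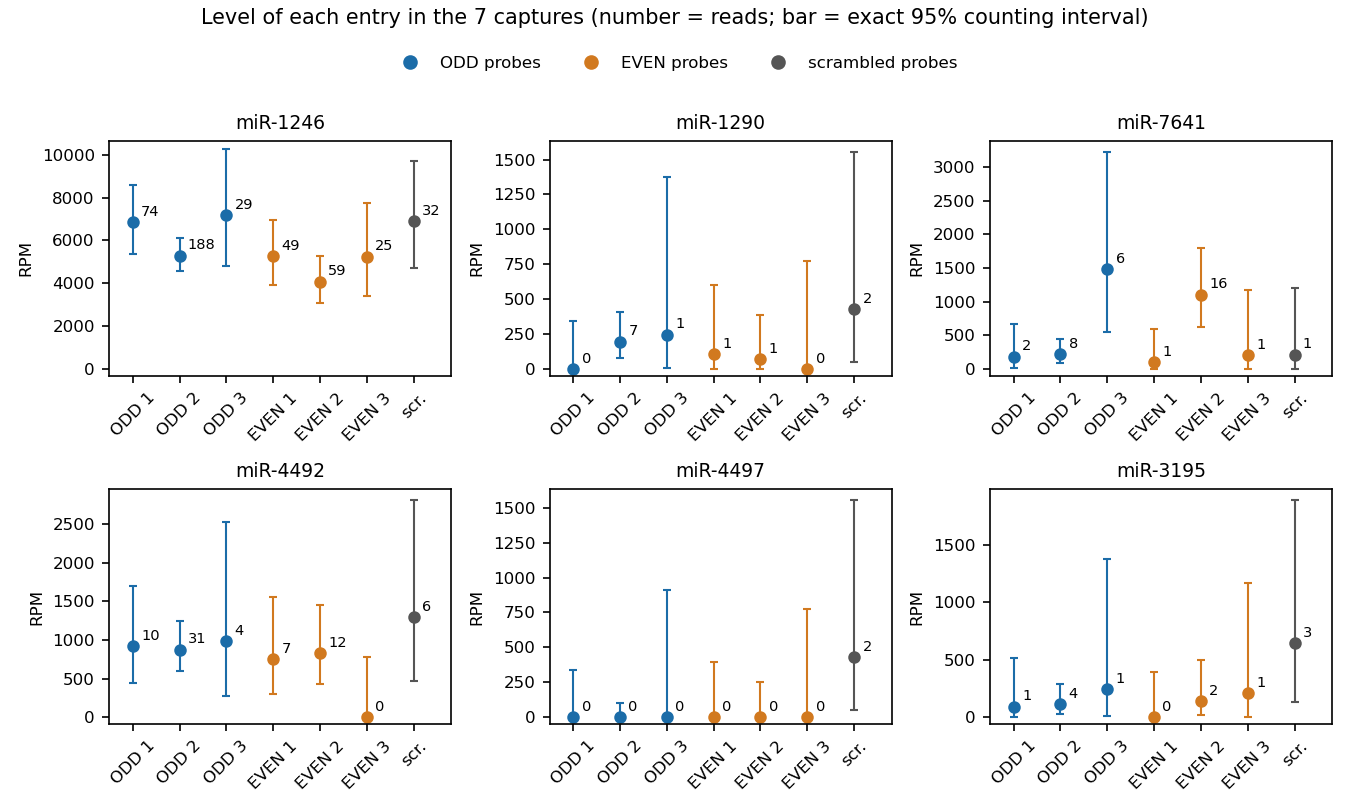
Level of each of the 6 entries (y axis, RPM, a scale of its own in each panel) in the 7 libraries (x axis), with the number of reads beside each point and the exact 95% counting interval as a bar. miR-1246 has 25 to 188 reads in each library, miR-4492 is at 0 in EVEN replicate 3 alone, and miR-4497 has reads in the scrambled library alone.

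miR-1246, the U2-like entry, was the most abundant of the 6 and the 24th of 480 names by mean RPM over all 7 libraries. In that order it stood next to broadly expressed microRNAs, just below miR-125b-5p (5604 RPM with X1 probes and 8823 RPM with scrambled probes) and just above miR-16-5p (5529 RPM and 4949 RPM). With X1 probes alone its mean, 5647 RPM, was above both. Its level was 6838, 5295 and 7162 RPM in ODD replicates 1 to 3 (74, 188 and 29 reads). It was 5273, 4071 and 5244 RPM in EVEN replicates 1 to 3 (49, 59 and 25 reads). With scrambled probes it was 6886 RPM (32 reads, exact 95% interval 4715 to 9707). The scrambled value thus lay above 5 of the 6 X1-probe libraries and below ODD replicate 3.

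Set against scrambled probes, miR-1246 averaged 5647 ± 1151 RPM with X1 probes (SD, n = 6). In log2 the difference was -0.31 with an SE of 0.36 (limma, 95% interval -1.04 to 0.42, adjusted p = 0.673). It did not pass, and the interval included 0. Each probe set alone did not pass either, at -0.11 for ODD (limma, adjusted p = 0.894) and -0.51 for EVEN (limma, adjusted p = 0.667). Every such comparison uses the single scrambled library, which is taken to vary as ODD and EVEN libraries do. Taking the reads of each group together, the ratio of X1 to scrambled probes was 0.780 (exact 95% interval 0.544 to 1.16, counting error only).

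Between the probe sets, the ODD captures averaged 6432 ± 998 RPM of miR-1246 and the EVEN captures 4863 ± 686 RPM (SD, n = 3 each). In log2 this was 0.40 with an SE of 0.27 (limma, 95% interval -0.15 to 0.95, adjusted p = 0.979). The exact two-sided permutation test gave p = 0.1, the smallest that 3 against 3 allows. Over all reads the ratio of ODD to EVEN probes was 1.24 (exact 95% interval 1.01 to 1.53), an interval that leaves out the spread between captures. The ODD libraries did not overlap the EVEN libraries, but the gap was 21.2 RPM, from 5295 RPM in ODD replicate 2 to 5273 RPM in EVEN replicate 1. This is less than the 28.2 RPM that 1 read was worth in the deepest library. With RPM taken over 1 row per mature name, the groups overlapped (exact permutation p = 0.2). Of the 242 tested names, 9 (3.72%) lay higher with ODD probes without overlap, miR-1246 and miR-4492 among them, and 8 (3.31%) lay lower, with no member among them.

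miR-1290, the close relative of miR-1246 in sequence, had 0, 7 and 1 reads in the 3 ODD captures, 1, 1 and 0 in the 3 EVEN captures, and 2 with scrambled probes. In RPM these were 0, 197 and 247 with ODD probes, 108, 69.0 and 0 with EVEN probes, and 430 with scrambled probes. Every X1-probe library was below the scrambled one, yet the scrambled value is 2 reads with an exact 95% interval of 52.1 to 1554 RPM. The mean was 103 ± 102 RPM with X1 probes (SD, n = 6), and the log2 difference was -2.86 (limma, 95% interval -7.94 to 2.21, adjusted p = 0.673). Between ODD and EVEN probes the groups overlapped and the log2 difference was 0.84 (limma, adjusted p = 0.981). Taken over all reads, the ratio of X1 to scrambled probes was 0.294 (exact 95% interval 0.0627 to 2.76). miR-1246 gave 424 reads with X1 probes and miR-1290 gave 10, so these entries, both 19 bases long and with 12 of them shared in a row, were far apart in reads.

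miR-7641, the entry grouped with rRNA, was uneven from library to library. Its stronger hairpin row had 185, 225 and 1482 RPM in ODD replicates 1 to 3 (2, 8 and 6 reads). The EVEN replicates had 108, 1104 and 210 RPM (1, 16 and 1 reads), and the scrambled library 215 RPM (1 read). One library of each probe set, ODD replicate 3 and EVEN replicate 2, was high and the rest were low, so the groups overlapped. The exact 95% interval of EVEN replicate 2, 631 to 1792 RPM, did not reach that of ODD replicate 2, 97.3 to 444 RPM, and neither did that of ODD replicate 3, 544 to 3223 RPM. The standard deviation over the 6 X1-probe libraries was 106% of the mean, the largest among the members with X1-probe reads. miR-1290 was close to it at 98.6%, with miR-3195 at 66.0%, miR-4492 at 50.2% and miR-1246 at 20.4%.

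No difference of miR-7641 passed. The mean was 552 ± 587 RPM with X1 probes (SD, n = 6), and the log2 difference from scrambled probes was 0.65 (limma, 95% interval -2.12 to 3.42, adjusted p = 0.800). Between ODD and EVEN probes it was 0.42 (limma, 95% interval -1.68 to 2.51, adjusted p = 0.981). Without ODD replicate 3 that difference was -0.52 and without EVEN replicate 1 it was -0.28, so its sign rested on single libraries. Over all reads the ratio of ODD to EVEN probes was 0.504 (exact 95% interval 0.240 to 1.05), on the other side of 1 from the fitted difference. Ratios over all reads weight each library by its depth. ODD replicate 2, at 225 RPM, held 35508 of the 50379 ODD reads. EVEN replicate 2, at 1104 RPM, held 14492 of the 28551 EVEN reads. The ratio of X1 to scrambled probes over all reads was 2.00, with an exact 95% interval of 0.336 to 81.4 because the scrambled library held 1 read.

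The 2 hairpin rows of miR-7641 did not hold the same reads. The row of mir-7641-2 had 35 reads over the 7 libraries and that of mir-7641-1 had 18. In ODD replicates 1 to 3 mir-7641-1 had 4, 4 and 4 reads beside 2, 8 and 6 for mir-7641-2. In the EVEN replicates it had 0, 5 and 0 beside 1, 16 and 1, and with scrambled probes 1 beside 1. ODD replicate 1 was the library where mir-7641-1 held more. ODD replicate 3 stood out in both rows, at 988 and 1482 RPM.

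**Figure D2:**
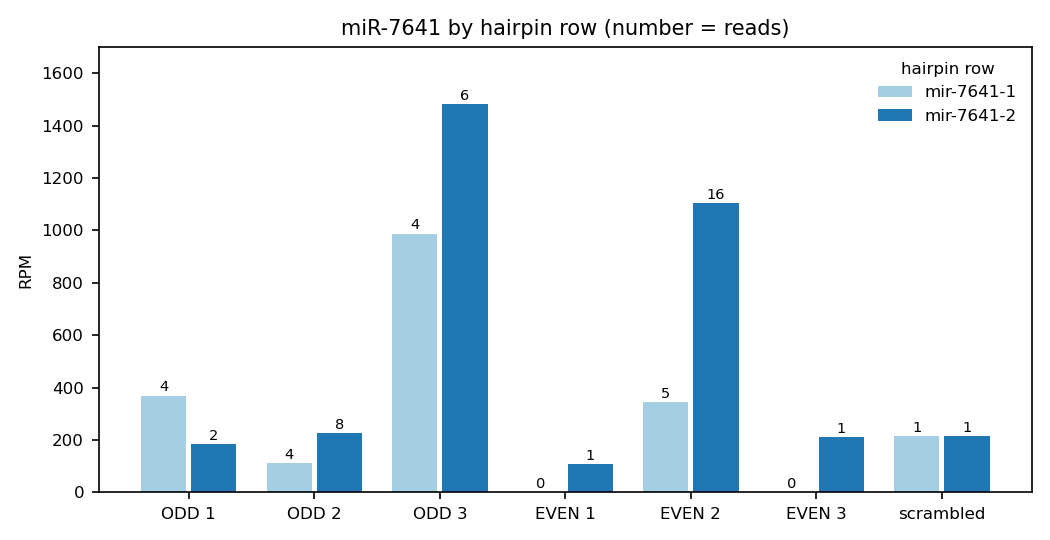
RPM (y axis) of the 2 hairpin rows of miR-7641 in each library (x axis), with the number of reads above each bar. The row of mir-7641-2 is the higher one in EVEN replicate 2, at 1104 RPM against 345 RPM, and both rows are high in ODD replicate 3.

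miR-4492 was the most abundant GC-rich member and the 74th name by mean RPM. Its level was 924, 873 and 988 RPM in ODD replicates 1 to 3 (10, 31 and 4 reads). EVEN replicates 1 to 3 had 753, 828 and 0 RPM (7, 12 and 0 reads). With scrambled probes it was 1291 RPM (6 reads, exact 95% interval 474 to 2808). The ODD libraries were close to each other, all 6 X1-probe libraries were below the scrambled one, and EVEN replicate 3 had no read. A count of 0 there allows a level of up to 629 RPM (3 reads, counting error only) and the exact 95% upper limit is 774 RPM. The first lies below and the second above the 753 RPM of EVEN replicate 1.

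Between the probe sets, the mean of miR-4492 was 928 ± 57.5 RPM for ODD and 527 ± 458 RPM for EVEN (SD, n = 3 each). In log2 this was 2.34 with an SE of 1.03 (limma, 95% interval 0.25 to 4.43, unadjusted p = 0.0296, adjusted p = 0.909). It did not pass over all names, and the exact two-sided permutation test gave p = 0.1, the smallest possible. The size depended on the added 10 RPM, since EVEN replicate 3 was at 0 RPM. The log2 difference was 3.44 with 1 RPM added and 1.26 with 100 RPM added (limma, adjusted p = 0.944 and 0.895). The size also rested on EVEN replicate 3: without that library the log2 difference was 0.23 (limma, adjusted p = 0.995). Leaving out EVEN replicate 1 or EVEN replicate 2 instead gave 3.36 and 3.42, and these passed (limma, adjusted p = 0.00903 and 0.0290). Both passes rest on the variance prior, which draws on all tested names, since the EVEN side was then 828 and 0 RPM or 753 and 0 RPM. In the fit of all libraries the prior had 28.6 degrees of freedom beside 4 from the captures, so its SE and unadjusted p lean on the prior too. Over all reads, the ratio of ODD to EVEN probes was 1.34 (exact 95% interval 0.769 to 2.43).

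Against scrambled probes, miR-4492 averaged 728 ± 365 RPM with X1 probes (SD, n = 6), and the log2 difference was -1.64 (limma, 95% interval -4.41 to 1.12, adjusted p = 0.673). For ODD it was -0.47 (limma, adjusted p = 0.890) and for EVEN -2.81 (limma, adjusted p = 0.652). Without EVEN replicate 3 the difference was -0.59 for X1 and -0.70 for EVEN probes. Without the fit, the ratio of X1 to scrambled probes over all reads was 0.628 (exact 95% interval 0.273 to 1.77). None of these separated the groups.

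miR-4497, which shares 8 bases with miR-4492, had no read in any of the 6 X1-probe libraries and 2 reads, 430 RPM, in the scrambled library. A count of 0 allows up to 38.0 RPM over the 78930 pooled reads of the X1-probe libraries, and 84.5 to 741 RPM in single ones. In ODD replicate 3 and EVEN replicate 3 this limit was above the scrambled value, so those libraries could not show a difference. The ratio of X1 to scrambled probes over all reads was 0, with an exact 95% upper bound of 0.313. The entry did not reach 10 RPM in 3 libraries and was not tested. With no filter limma passed it (log2 difference -5.46, adjusted p = 0.0114), but the X1-probe values are all 0 and the other side is 1 library, so the size and the p rest on the added 10 RPM and the variance prior and do not bear on a difference. Of the 480 names, 9 had reads in the scrambled library alone, and 3 of these had at least 2 reads. In the other direction 297 names had X1-probe reads alone.

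The reads of miR-3195 numbered 1, 4 and 1 with ODD probes, 0, 2 and 1 with EVEN probes, and 3 with scrambled probes. Its level was 92.4, 113 and 247 RPM with ODD probes, 0, 138 and 210 RPM with EVEN probes, and 646 RPM with scrambled probes. All 6 X1-probe libraries were below the scrambled one, and ODD and EVEN overlapped. It averaged 133 ± 87.9 RPM with X1 probes (SD, n = 6), with a log2 difference of -2.70 (limma, 95% interval -7.05 to 1.65, adjusted p = 0.673). Over all reads the ratio of X1 to scrambled probes was 0.177 (exact 95% interval 0.0441 to 1.01).

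Across the 5 tested members, 0 passed for X1 probes against scrambled probes, where 0.826% of the 242 tested names did, both of them higher. No member passed for ODD or for EVEN probes against scrambled probes either, where 0.826% passed in each. For ODD against EVEN probes 0 of 5 passed, beside 0.413% of all names. At an unadjusted p under 0.05, limma gave 0 of 5 members for X1 against scrambled probes, where 7.02% of names were higher and 1.65% lower. It gave 0 of 5 for ODD, where 7.44% were higher and 1.65% lower, and 0 of 5 for EVEN, where 6.2% were higher and 2.07% lower. For ODD against EVEN it gave miR-4492, higher, where 2.07% of names were higher and 2.48% lower. With shares this low, no call among 5 names is close to the background, which holds for the comparisons without a call. The exception, miR-4492 in ODD against EVEN, did not pass after adjustment. Its size rested on EVEN replicate 3 and on the added 10 RPM.

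By direction, 4 of the 5 tested members had a log2 difference below 0 for X1 against scrambled probes, all but miR-7641, beside 47.5% of the 242 names. Of the 5, 3 lay below the scrambled library in all 6 X1-probe libraries (miR-1290, miR-4492 and miR-3195), beside 55 of 242 (22.7%). The shares of 47.5% and 22.7% include names without a scrambled read, which cannot lie below it. All 5 members had scrambled reads, as did 183 of all 480 names, so the shares among such names are higher than these. The median log2 difference was -1.64 over the 5 and 0.096 over all tested names. For ODD against EVEN probes all 5 were above 0 and the median was 0.84, beside 54.5% of names above 0 and a median of 0.072. Leaving out 1 library turned the sign for miR-1290 (-0.25 without EVEN replicate 3), for miR-3195 (-0.29 without EVEN replicate 1) and for miR-7641, as given above. The comparisons with scrambled probes rest on 1 library, and the members there had 1 to 32 reads.

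**Figure D3:**
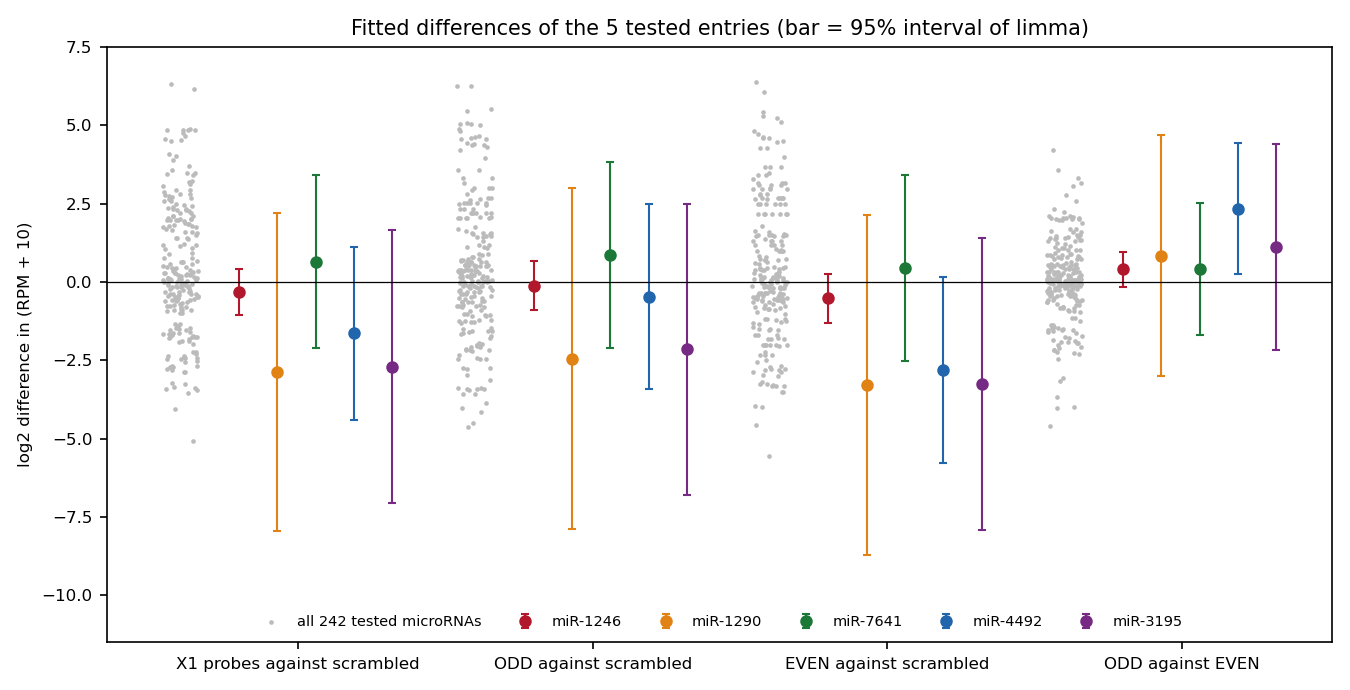
Fitted log2 difference in (RPM + 10) (y axis) of the 5 tested entries in 4 comparisons (x axis), with 95% intervals of limma as bars and all 242 tested microRNAs as grey points. The intervals of the 5 entries hold 0, except that of miR-4492 in ODD against EVEN probes, at 0.25 to 4.43.

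Other entries thought to come from structural RNA or GC-rich sequence were set beside the members. Of 54 listed names, 30 mature entries had reads and 20 were tested. None passed in any of the 4 comparisons. For X1 against scrambled probes 10 had a log2 difference above 0 and 10 below (median -0.026), and for ODD against EVEN the median was -0.0081. The list as a whole summed to 14636 to 22177 RPM per X1-probe library and to 18076 RPM in the scrambled one.

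The most abundant of them were miR-7704, miR-1260b, miR-1260a and miR-6087. miR-1260a and miR-1260b, which resemble tRNA, had 3341 ± 764 and 3601 ± 598 RPM with X1 probes and 3013 and 3228 RPM with scrambled probes. miR-7704 had 3530 ± 582 RPM and 3873 RPM, and miR-6087 had 1407 ± 716 RPM and 2367 RPM (SD over 6 X1-probe libraries). None of these had an adjusted p under 0.05. By kind, the tRNA-like names summed to 5664 to 9937 RPM with X1 probes and 6671 RPM with scrambled probes, and the rRNA-like names to 861 to 2403 RPM and 1722 RPM. The listed GC-rich names summed to 5704 to 9230 RPM and 7962 RPM, and the snoRNA-like names to 839 to 1848 RPM and 1722 RPM. The mitochondrial names had 0 to 462 RPM and 0 RPM. The scrambled value lay within the range of the X1-probe libraries for each kind, at its low end for the mitochondrial names.

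Base composition was compared over the 200 tested names with a RefSeq mature sequence, a comparison chosen after the members' levels were seen. Of the 12 with at least 75% G or C, 11 had a log2 difference below 0 for X1 against scrambled probes, beside 93 of 200. The 1 above 0, miR-1908-3p, had no scrambled read, so its value depends on the added 10 RPM. A name without a scrambled read cannot fall below 0. The 11 all had scrambled reads, while the 200 include names without any, so these 2 counts are not like for like. Of the 11, miR-3196 and miR-3648 had a higher mean RPM with X1 probes (245 and 236 RPM) than with scrambled probes (215 RPM, 1 read, for each), so their sign comes from the log scale. The median over the 12 was -1.15, beside 0.12 over the 200, and none passed. Among them miR-4492 was at -1.64, the abundant miR-4449 at -0.51 and miR-3180-3p at -0.98. Summed, the 12 had 11602 ± 1884 RPM with X1 probes (SD, n = 6, at most 14474) and 16570 RPM with scrambled probes. Of the 12, 8 had 0 or 1 scrambled reads. Between the probe sets the 12 had a median of -0.48, and miR-4492, at 2.34, was on the other side. With bounds of 70% and 80% the medians for X1 against scrambled probes were -0.82 over 22 names and -0.57 over 9. Markers of neurons, 2 of 2 with reads, also summed higher in the scrambled library, at 92.4 to 494 RPM with X1 probes and 1291 RPM with scrambled probes. The part of base composition or of other cells in these values was not tested.

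**Figure D4:**
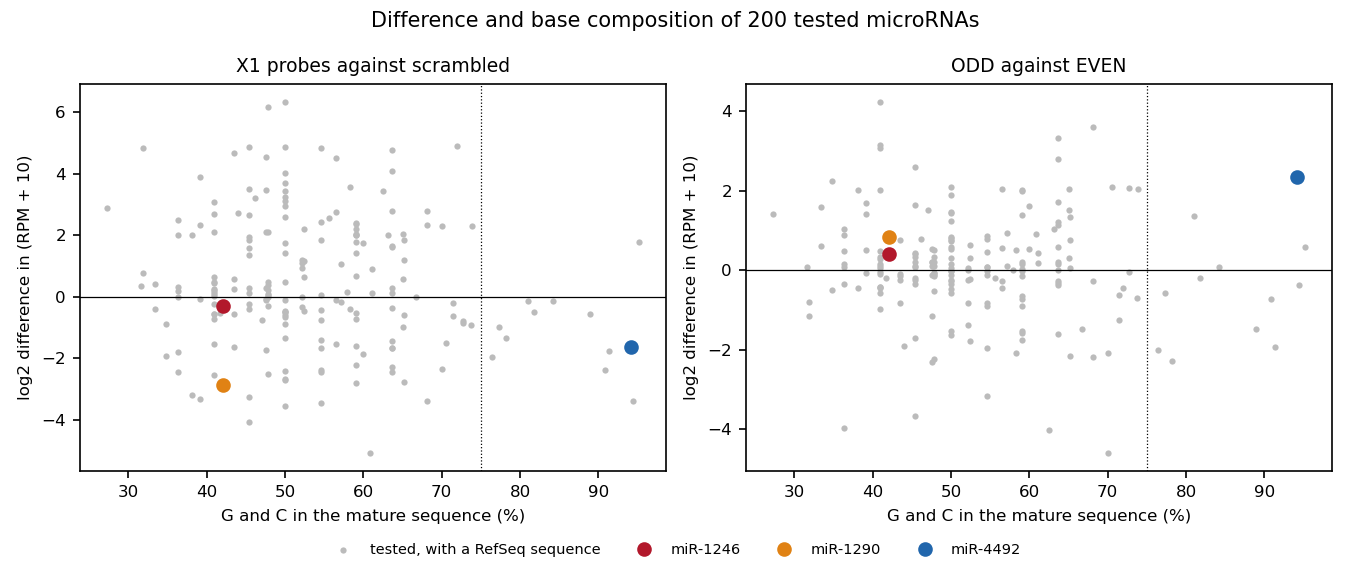
Log2 difference in (RPM + 10) (y axis) against the share of G and C in the mature sequence in percent (x axis) for 200 tested microRNAs, left for X1 against scrambled probes and right for ODD against EVEN probes. Right of the dotted line at 75% stand 12 names, while miR-1246 and miR-1290 sit at 42.1%. In the left panel 11 of the 12 are below 0, and these 11 are the ones with scrambled reads.

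Among 67 tested microRNAs of at least 1000 RPM, the level of miR-24-3p over the 7 libraries was the most like that of miR-1246 (Pearson r = 0.857 on log2(RPM + 10)). miR-30a-5p (r = 0.807) and miR-30d-5p (r = 0.797) came next. For the summed level of the 6 members the 3 most alike were miR-30a-5p (r = 0.805), miR-378a-3p (r = 0.789) and miR-3651 (r = 0.719), the last a snoRNA-like entry of the list above. These are the highest of 67 correlations each, a choice that raises r. They describe 7 libraries of unequal depth in which all values share a fixed total. For miR-24-3p the mean was 1197 ± 40.3 RPM in ODD captures and 703 ± 321 RPM in EVEN captures (SD, n = 3 each), beside 1506 RPM with scrambled probes. The means of miR-1246 and miR-4492 came in that order too.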

How the data were processed

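RPM values of 498 hairpin and mature rows were deposited by the authors for 7 libraries. The submitters' processing notes name CASAVA 1.8 and cutadapt 1.2.1. How reads were aligned and counted, and against which annotation and build, is not given in the sources used here. That these other-scale numbers, deposited with decimal commas, are RPM was read from the column sums of 1000000. Each was a whole multiple of 1 read (100% at a tolerance of 1e-06 reads), which gave reads and depths.

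Groups came from the sample titles. Names that reached 10 RPM in at least 3 libraries (242) were tested on log2(RPM + 10) with limma 3.58.1 (R 4.3.3). The fit had 3 group means and a trended eBayes step, two-sided, with p-values adjusted over all 242 by Benjamini-Hochberg and a threshold of 0.05. Fold changes of low names depend on the added 10 RPM. Exact Clopper-Pearson intervals and floors of 3 reads cover counting error only, since without molecular identifiers PCR copies count as reads. The fit was tried on simulated reads with counting error only, and only ODD against EVEN was scored. That trial does not show how the fit behaves with spread between captures or with a single scrambled library. The members, lists and tests were chosen with earlier results of these data known. By rule, the 6 members, the 4 most abundant of the list, the 3 most alike and the neighbours of miR-1246 are named. miR-4449, miR-3180-3p, miR-1908-3p, miR-3196, miR-3648 and miR-5001-5p were named after their values were seen.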

Additional observations from a re-analysis of the deposited data

Results flagged for a closer look

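Among the 6 X1-probe libraries, miR-4492 in EVEN replicate 3 stood apart, with 0 RPM where the other 5 libraries had 753 to 988 RPM. The gap to the next value was 0.763 of the whole range, above the 95% critical value of Dixon's test for 6 values. Chance flags about 1 in 20 such groups, and 7 groups of values were examined. EVEN replicate 3 held 4767 reads. No cause was tested.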

How the results depend on the processing

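Of 340 log2 differences recomputed under 17 other settings, 328 kept their sign and their side of the threshold, 10 changed sign without passing and 2 passed. Sizes moved even where signs held. For X1 against scrambled probes they ran from -4.01 to -0.99 for miR-1290, -3.31 to -1.26 for miR-3195 and -3.70 to -0.59 for miR-4492. The ranges were -0.35 to -0.17 for miR-1246 and 0.19 to 1.35 for miR-7641. The 2 that passed were miR-4492 in ODD against EVEN without single EVEN replicates, and they rest on the variance prior as given above. The number of members called stayed at 0 except with no filter, where miR-4497 gave 1 call against scrambled probes in each of 3 comparisons, and in ODD against EVEN without single EVEN replicates (range 0 to 1). Sign changes against scrambled probes were miR-1246 with ODD probes with the replicate block (0.032) or without ODD replicate 2 (0.023, range over left-out libraries -0.19 to 0.023), miR-7641 with ODD probes without ODD replicate 3 (range -0.073 to 1.40), and miR-7641 with EVEN probes under quantile normalization (-0.091), with hairpin rows summed (-0.39) or without EVEN replicate 2 (range -0.49 to 1.14). In ODD against EVEN leaving out 1 library gave ranges of -0.25 to 2.35 for miR-1290, -0.29 to 1.94 for miR-3195 and -0.52 to 1.35 for miR-7641. The cause was not tested. The labels number the captures 9, 10 and 12 in both probe sets, and the scrambled library is also 12, but do not say what the numbers mark. Same-numbered ODD and EVEN libraries correlated at -0.044, 0.072 and 0.019 in their deviations. Counting error in names of few reads lowers such correlations, so these cannot show whether the libraries were paired. The reported fit did not treat them as pairs. The replicate block called 0 members, and with it miR-4492 against scrambled probes was at -3.70 for X1, -2.54 for ODD and -4.87 for EVEN.

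Counts over all tested names ran from 0 to 12 for X1 against scrambled probes (2 as reported, 12 with no filter), 0 to 11 for ODD and 0 to 12 for EVEN against scrambled probes (2 each as reported), and 0 to 3 for ODD against EVEN (1 as reported). With the replicate block all 4 counts were 0. RPM over 1 row per name raised the mean of miR-1246 to 8757 with ODD and 6695 with EVEN probes. The 3 names most like miR-1246 were the same at log2(RPM + 100). The planned count tests on recovered reads were not run. Depth limits miR-1290, miR-4497 and miR-3195 most, with 0 to 7 reads per library.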
